A study of Homo sapiens with 8 samples.

Results

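The mitochondrial ribosomal protein genes were read as the array genes named MRPL or MRPS with a number and at most 1 letter from A to C, without pseudogene or antisense names. They numbered 77 of the 43317 genes on the array, and 95 probes of 60 bases measured them. The family was chosen by name, but with the treated-over-mock ratios of these same arrays already known, so all ratios below are descriptions.

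Mitochondria keep their own ribosome, the mitoribosome, which makes the hydrophobic core proteins of the respiratory chain that are encoded in mitochondrial DNA. All of its proteins are encoded in the nucleus, made in the cytosol and imported. Most proteins of the large subunit, which forms the peptide bond site and exit tunnel, carry the letter L. Most of those of the small subunit, which reads the messenger RNA, carry the letter S. In either subunit some proteins have a counterpart in bacterial ribosomes and others are particular to mitochondria. By a list written from general knowledge, 30 members were large subunit proteins shared with bacteria and 20 were large subunit proteins particular to mitochondria. MRPS18A and MRPS30 are among these 20 in spite of the letter S. A further 16 were small subunit proteins shared with bacteria, and 10 were small subunit proteins particular to mitochondria. MRPS36 alone is no ribosomal subunit: the current RefSeq symbol is KGD4, a part of the oxoglutarate dehydrogenase complex.

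The study compared treated with mock cells of 4 human cancer lines on 8 two-colour arrays, with Cy3 on mock RNA and Cy5 on treated RNA throughout. PC3 cells, from a prostate cancer, received bisamide, a small molecule described as a PIR inhibitor, for 24 h or 48 h. The other 6 arrays held cells transfected with 1 miRNA strand each. Both strands of miR-140 went into T24 bladder cancer cells and both of miR-532 into 786-O renal cancer cells. C4-2 prostate cancer cells received miR-199-3p, and a further PC3 array held miR-125b-1-3p. The labels give the mocks as not transfected, so the delivery of RNA itself and the strand cannot be told apart. Each treatment had 1 array, which allows no test. The time and dose of these miRNA transfections were not given in the sources used here. The sample codes of the deposited data show 1 code in common for the miR-532 arrays and 1 for the miR-140 arrays, so the mocks of 786-O, and those of T24, may each be 1 RNA measured on 2 arrays.

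Cell identity was read from marker genes in the mock channel. KLK3, the prostate-specific antigen, had a raw intensity of 13592 in the C4-2 mock and 21.4 to 22.6 in the others. CDH6 was above background in both 786-O mocks and in no other. In the T24 mocks KRT5, UPK2 and GATA3 were not above background, while PAX8 and PAX2, listed for 786-O, were above background. After quantile normalization the mean mock level of PAX2 was 9.08 in T24 and 7.81 in 786-O, and that of PAX8 was 8.58 and 8.75. CDH1 was above background in 1 of the 3 PC3 mocks. What part these levels have in the values below was not tested.

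The transfected strands are shown because their seeds, bases 2 to 8 in capitals, decide which transcript sequences can pair with them. The sequences are those of RefSeq for GRCh38.p14, 5′ to 3′, and the 6 seeds differ from each other. The labels do not say which copy of miR-199-3p was used, and its a and b forms have the same mature sequence.
miR-199-3p: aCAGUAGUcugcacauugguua
miR-125b-1-3p: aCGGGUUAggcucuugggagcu
miR-532-5p: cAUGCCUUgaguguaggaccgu
miR-532-3p: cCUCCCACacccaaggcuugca
miR-140-5p: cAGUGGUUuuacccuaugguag
miR-140-3p: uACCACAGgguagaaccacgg
The strands of miR-532 lie at chrX:50003167-50003188 and chrX:50003204-50003225, and those of miR-140 at chr16:69933103-69933124 and chr16:69933142-69933162, all on the plus strand. The genes of miR-199-3p lie on chromosomes 1, 9 and 19, and that of miR-125b-1-3p on chromosome 11.

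All 77 members were well above background in both channels of all 8 arrays. Their median of mean log2 intensity was 9.80, against 7.68 for the genes measured on all arrays. Ratios are given as log2 of treated over mock after loess normalization, with a size of 0.5 taken as lower or higher. Of 616 member values, 24 were under −0.5 and 2 over 0.5. These belonged to 23 members, and the other 54 passed 0.5 on no array. Of all genes measured on the 8 arrays, 22.5% passed 0.5 on at least 1. Past 0.5 on more than 1 array were 3 members, MRPL16, MRPS10 and MRPS18C, and the share of all genes is not given for that count.

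**Figure D1:**
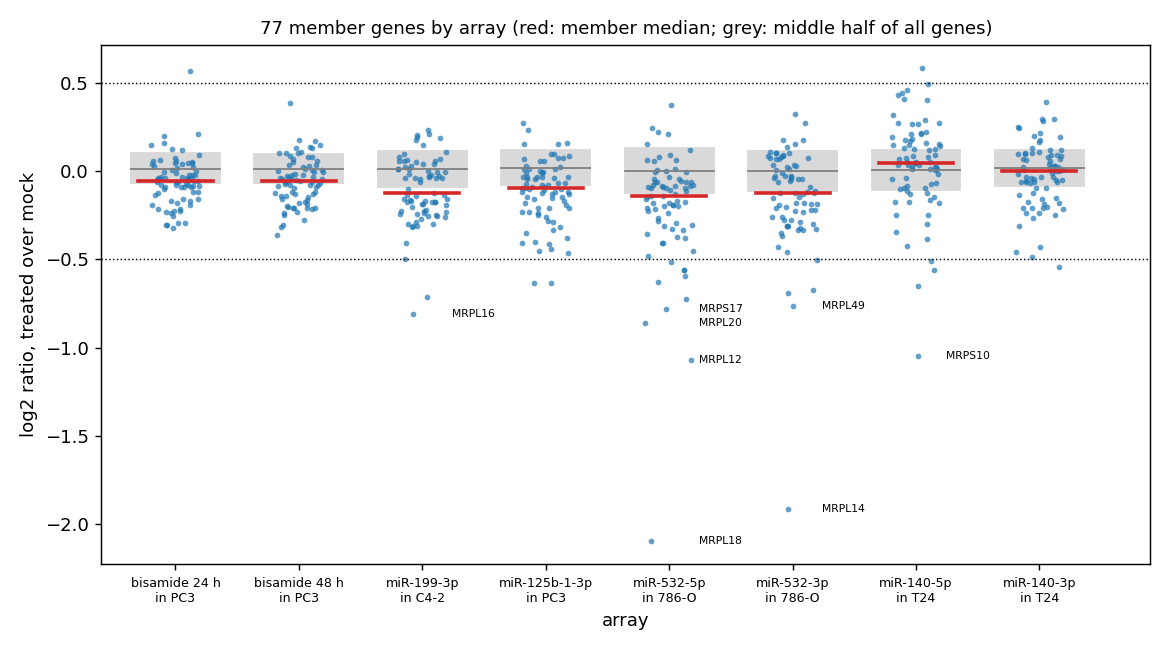
Log2 ratio of treated over mock (y axis) of the 77 member genes on each of the 8 arrays (x axis), 1 point per gene; the red line is the member median, the grey box the quartiles of all measured genes, and dotted lines stand at −0.5 and 0.5. MRPL18 at −2.10 and MRPL14 at −1.92 lie far below the rest, each on 1 array.

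With miR-532-5p, 10 members were under −0.5 and none was over 0.5, where 3.67% of all measured genes were under and 3.61% over. The member median was −0.14, with quartiles of −0.31 and −0.06, and 63 of 77 were below 0, against 49.9% of all genes. With the 3p strand of miR-532, 5 members were under −0.5 (3.83% of all genes) and none over (1.71%), with a median of −0.13 and 53 below 0 (50% of all genes). These 2 arrays held 15 of the 24 low values. With miR-199-3p, 2 members were under −0.5 (2.74% of all genes) and none over (1.75%), the median was −0.12, and 54 were below 0 (47.3%). On the miR-125b-1-3p array 2 were under −0.5 (0.883% of all genes) and none over (1.77%), the median was −0.10, and 58 were below 0 (45.6%). The T24 arrays read otherwise. With miR-140-5p the median was 0.05, 4 members were under −0.5 (2.89% of all genes), 1 was over 0.5 (1.74%) and 27 were below 0 (47.6%). The 3p strand gave a median of −0.00, with 1 member under −0.5 (1.1% of all genes), none over (0.992%) and 39 below 0 (45.5%). Bisamide gave a median of −0.06 at both times. No member was under −0.5 (0.411% of all genes at 24 h and 0.883% at 48 h), 1 was over 0.5 at 24 h (1.05%) and none at 48 h (0.91%), and 55 and 52 were below 0 (45.8% of all genes at either time). Past 1.0 were 4 values, all low: MRPL18 and MRPL12 with miR-532-5p (0.447% of all genes), MRPL14 with miR-532-3p (0.55%) and MRPS10 with miR-140-5p (0.323%). Past 1.5, the size the study used, were MRPL18 (0.0893%) and MRPL14 (0.142%).

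The direction of these medians rests on loess. After median centring, which leaves the brightness-dependent dye difference in place, the median of all genes moved to between −0.03 and 0.45. Relative to it the members were higher by 0.09 to 0.44 on 7 arrays, and only with miR-532-5p were they lower, with a difference of −0.22.

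MRPL18 is the mitochondrial counterpart of the bacterial large subunit protein that binds ribosomal RNA of the central protuberance. Its 1 probe lies at chr6:160219094-160219153 of GRCh37, plus strand. On the miR-532-5p array its raw intensity was 1037 in the mock and 191 in the transfected channel, and on the miR-532-3p array 961 and 1072. Its log2 ratios were −2.10 with miR-532-5p and −0.35 with miR-532-3p. They were −0.17 and −0.15 with bisamide at 24 h and 48 h, −0.16 with miR-125b-1-3p, −0.13 with miR-199-3p, and −0.07 and −0.21 with the 5p and 3p strands of miR-140. One array thus stood apart, and the other 7 did not overlap with it. The low value ranked 4 from the lowest of 15669 measured genes, and across the alternatives in processing, median centring included, it ran from −2.35 to −1.94.

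The second lowest member with miR-532-5p was MRPL12, the counterpart of the flexible stalk protein that recruits translation factors. Its probe at chr17:79674001-79674060 (GRCh37, plus strand) gave −1.07 there, from raw intensities of 283 in the mock and 99.8 in the transfected channel. On the other arrays it lay between −0.38 and 0.03. A second MRPL12 probe, which overlaps the first, gave −1.03. Then followed MRPL20, a protein bound early in assembly of the large subunit (−0.86), MRPS17, a small subunit protein that binds ribosomal RNA (−0.78), and MRPL40 of the large subunit (−0.73). MRPL51, MRPS11, MRPL39, MRPL33 and MRPS24 lay between −0.63 and −0.51. By subunit, 7 of 50 large subunit and 3 of 26 small subunit proteins were under −0.5. The highest members were MRPL48 (0.38), MRPS16 (0.25) and MRPL30 (0.22). A second MRPS16 probe gave −0.08, so that its position among the highest rests on 1 probe.

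**Figure D2:**
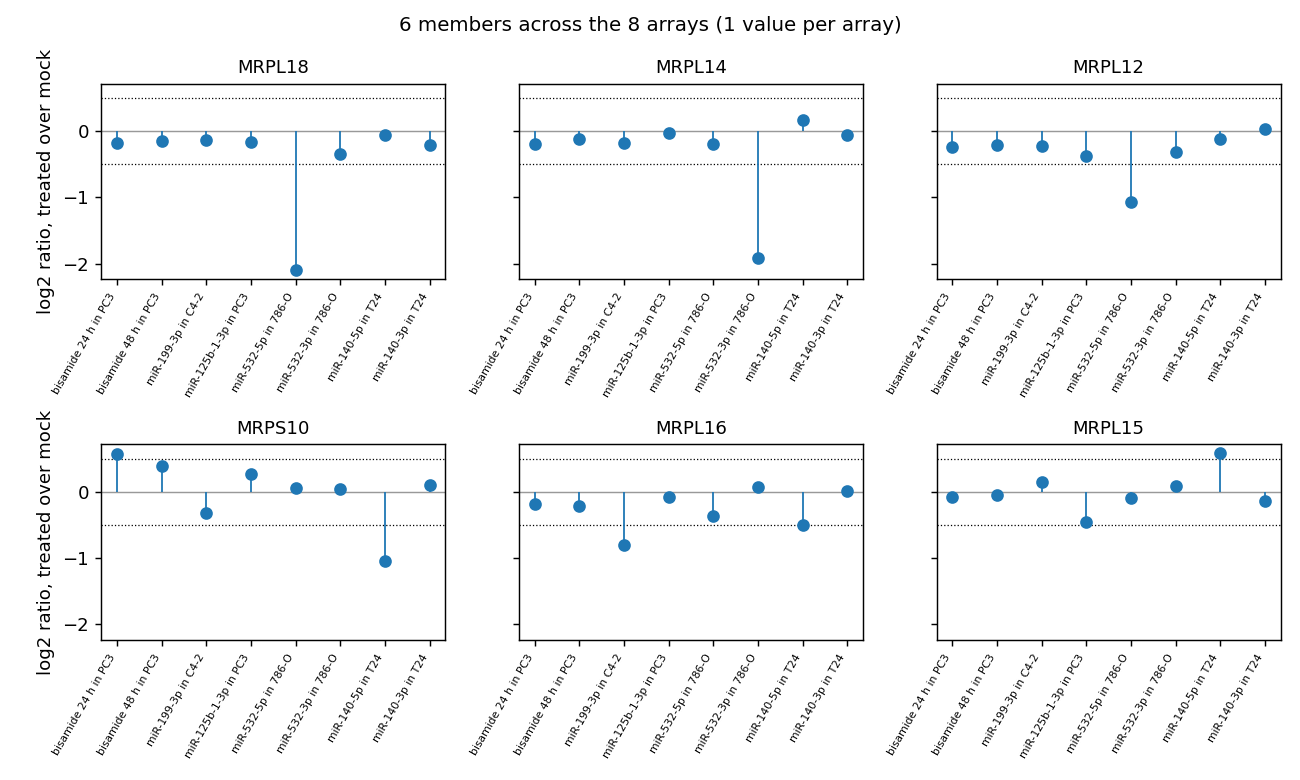
Log2 ratio of treated over mock (y axis) of 6 members on the 8 arrays (x axis), with dotted lines at −0.5 and 0.5. MRPL18 and MRPL12 are low with miR-532-5p (−2.10 and −1.07), MRPL14 with miR-532-3p (−1.92), MRPS10 with miR-140-5p (−1.05) and MRPL16 with miR-199-3p (−0.81), while MRPL15 is high with miR-140-5p (0.58).

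With miR-532-3p, MRPL14 stood apart. It is the counterpart of a bacterial large subunit protein at the face that meets the small subunit, and its probe lies at chr6:44081375-44081434 (GRCh37, minus strand). Raw intensities on that array were 284 in the mock and 66.4 in the transfected channel, a log2 ratio of −1.92, and with miR-532-5p they were 302 and 228, a log2 ratio of −0.19. The ratios were −0.19 and −0.12 with bisamide, −0.03 with miR-125b-1-3p, −0.18 with miR-199-3p, and 0.18 and −0.06 with the 5p and 3p strands of miR-140. Without the normexp offset, which shrinks the ratios of dim spots, the low value was −2.80. Again 1 array was low and 7 lay near the mock. The next lowest were MRPL49 (−0.76), MRPL32 (−0.69), which is cut by a mitochondrial protease on import, and MRPS18C (−0.67), 1 of 3 human relatives of bacterial S18. MRPL13 was at −0.50. A second probe of MRPL32 gave −0.65. MRPL30 (0.33), MRPS26 (0.27) and MRPS35 (0.18) were highest.

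No member was under −0.5 with both strands of miR-532. Of all genes, 3.67% were under −0.5 with the 5p strand and 3.83% with the 3p strand. The share under −0.5 with both is not given, so the lack of overlap is not read as a family trait. The difference of the ratios, miR-532-5p minus miR-532-3p, was −1.75 for MRPL18 and 1.73 for MRPL14, the ends of the family. It was under −0.5 for 8 members (4.1% of all genes measured on both arrays) and over 0.5 for 3 (4.78%), with a median of −0.04. Beyond MRPL18, MRPL12 differed by −0.76, and on the other side MRPL49 by 0.76 and MRPL32 by 0.50. With median centring the median difference moved to −0.56. The median of all genes then differed between these arrays too, at −0.03 with miR-532-5p and 0.17 with miR-532-3p.

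**Figure D3:**
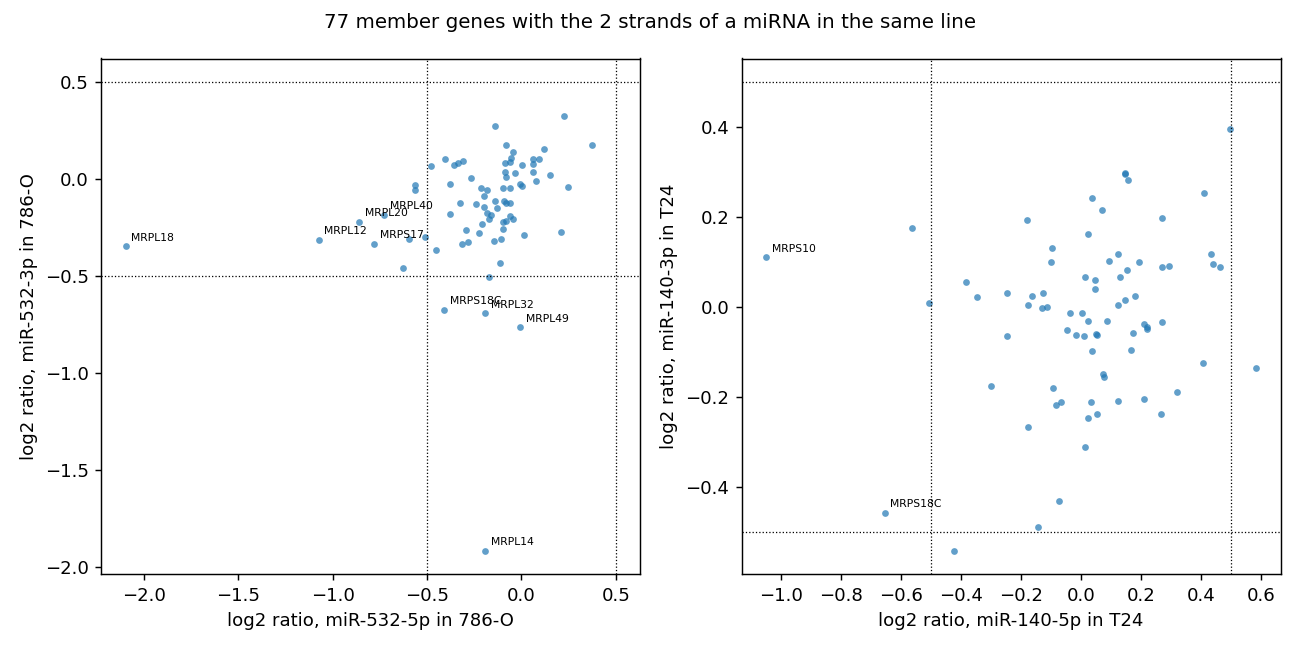
Log2 ratios of the 77 members with the 3p strand (y axis) against the 5p strand (x axis), for miR-532 in 786-O (left) and miR-140 in T24 (right), with dotted lines at −0.5 and 0.5. No member lies in the lower left corner for miR-532, where the share of all genes is not given, and MRPL18 and MRPL14 lie on different axes.

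The probe sequences allowed a limited search for seed matches, since each covers 60 bases of a transcript. The probe reads as the transcript does, and the reverse complement of seed bases 2 to 7 or 2 to 8 was looked for. Over the 6 miRNA arrays, 11 times the probe representing a member held a match to bases 2 to 7 of the strand transfected, and 4 of these values were under −0.5. They were MRPL12 and MRPS24 with miR-532-5p, MRPL16 with miR-199-3p and MRPL24 with miR-125b-1-3p. Stretches of 30 bases from these probes, with the match in capitals, show how each reads.
MRPL12, miR-532-5p: ggaaatcaagaactacatccAAGGCATcaa
MRPS24, miR-532-5p: ctcagaggactgAGGCATagtctctcatct
MRPL16, miR-199-3p: atataggCTACTGaaagaaggattctgcat
MRPL24, miR-125b-1-3p: gaattatccctaAACCCGaatttcccagag
MRPL12 held the full match to bases 2 to 8, the 1 such case among the members. Among all genes measured with miR-532-5p, 0.434% of the representing probes held it, and 25% of these were under −0.5, against 3.58% of genes without it. For bases 2 to 7 the shares under −0.5 were 15.4% with and 3.52% without a match on the miR-532-5p array, 3.39% and 0.875% for miR-125b-1-3p, and 11.9% and 2.58% for miR-199-3p. With a match these were 31 of 201 genes, 2 of 59 and 32 of 269. The members are counted in them, and MRPL24 was 1 of the 2 with miR-125b-1-3p. The other 7 members with a match lay between −0.33 (MRPL34 with miR-532-3p) and 0.21 (MRPL46 with miR-199-3p). MRPL18 was among them, with a match to miR-140-3p and a ratio of −0.21 on that array. The MRPL18 probe held no match to miR-532-5p, which says only that these letters are not in its 60 bases.

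A match to bases 3 to 8 was added after the values had been seen. It occurred 6 times, and 2 of these values were under −0.5, MRPL12 with miR-532-5p and MRPL14 with miR-532-3p. The MRPL12 match is part of its match to bases 2 to 8 shown above, so of these 2 only the MRPL14 match was added. The stretch of the MRPL14 probe reads as follows, with the match in capitals.
MRPL14, miR-532-3p: gctttctgggatGTGGGAaaataaattaca
Among all genes on that array 1.7% of the probes held this match, and 13% of these were under −0.5, against 3.68% without it. For bases 3 to 8 of the other strands, the shares with and without a match were 13.8% and 2.61% for miR-199-3p and 10.6% and 3.55% for miR-532-5p. They were 2.1% and 0.873% for miR-125b-1-3p and 1.9% and 1.08% for miR-140-3p. With miR-140-5p the order was the other way, at 2.01% and 2.9%. A match is a description and not a site. Transcript sequence beyond the probes was not used here.

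With miR-140-5p, MRPS10 was the lowest member. It is the counterpart of a bacterial small subunit protein in the head of that subunit, and its probe lies at chr6:42174613-42174672 (GRCh37, minus strand). Its raw intensities were 690 in the mock and 524 in the transfected channel of that array, a log2 ratio of −1.05, and 694 and 1347 with miR-140-3p, a ratio of 0.11. MRPS10 was also the highest member with bisamide, at 0.57 after 24 h and 0.39 after 48 h. It read 0.28 with miR-125b-1-3p, also in PC3, −0.32 with miR-199-3p, and 0.06 and 0.04 with the strands of miR-532. The 3 positive values over 0.2 thus all came from PC3, and those of C4-2 and of miR-140-5p in T24 were negative. Line and treatment cannot be told apart in that pattern. Within T24, the strands differed by −1.16 (5p minus 3p). After median centring the low value was −0.41, where the median of all genes had also moved, by 0.35.

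Below 0 with miR-140-5p were also MRPS18C (−0.65), MRPL43 (−0.56), a large subunit protein particular to mitochondria, and MRPL16 (−0.51). A dimmer second probe of MRPL43 gave −0.07. At the other end MRPL15, a large subunit protein shared with bacteria, read 0.58, while it was −0.13 with miR-140-3p and −0.46 with miR-125b-1-3p. MRPL54 (0.50) and MRPL52 (0.46) followed, but a second MRPL52 probe gave −0.29, the largest disagreement between probes of 1 member. With miR-140-3p the lowest members were MRPS31 (−0.54), MRPS17 (−0.49) and MRPS18C (−0.46), and the highest were MRPL54 (0.40), MRPL37 (0.30) and MRPL48 (0.30). The difference of the strands, miR-140-5p minus miR-140-3p, was under −0.5 for 3 members (3.51% of all genes) and over 0.5 for 4 (2.41%). MRPS18C read −0.65 and −0.46 with the 5p and 3p strands, of which the second does not pass 0.5.

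With miR-199-3p in C4-2, MRPL16 was lowest at −0.81. It is the counterpart of a protein beside the peptidyl transferase centre, and its probe lies at chr11:59573740-59573799 (GRCh37, minus strand). On the other arrays it ran from −0.51 with miR-140-5p to 0.07 with miR-532-3p. MRPS9 followed at −0.71, while with the other treatments it lay between −0.43 and 0.22, and MRPS24 was at −0.50. MRPL44 (0.23), MRPL46 (0.21) and MRPL11 (0.20) were highest. With miR-125b-1-3p in PC3, MRPL19 and MRPL24 were lowest, both at −0.63, and MRPL4 and MRPL15 were at −0.46. MRPL19 has 3 probes, and its other 2, which are dimmer, gave −0.08 and −0.02, so its value rests on 1 probe. MRPL24 had 1 probe and was between −0.23 and 0.18 on the other arrays. MRPS10 (0.28), MRPL48 (0.24) and MRPL54 (0.16) were highest.

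With bisamide no member passed 0.5 but MRPS10 at 24 h. A dimmer second probe of MRPS16 gave 0.59 at 48 h, where the brighter one that represents the gene gave 0.08. At 24 h MRPL20 (−0.32), MRPL19 (−0.31) and MRPL17 (−0.30) were lowest, and at 48 h MRPL13 (−0.36), MRPL47 (−0.32) and MRPL19 (−0.31). MRPS10, MRPL2 and MRPS18A read 0.57, 0.21 and 0.20 at 24 h and 0.39, 0.17 and 0.15 at 48 h, where MRPS25 read 0.17. The change from 24 h to 48 h ran from −0.18 (MRPS10) to 0.23 (MRPL17), so no member passed 0.5 between the times (0.185% of all genes under −0.5 and 0.114% over).

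**Figure D4:**
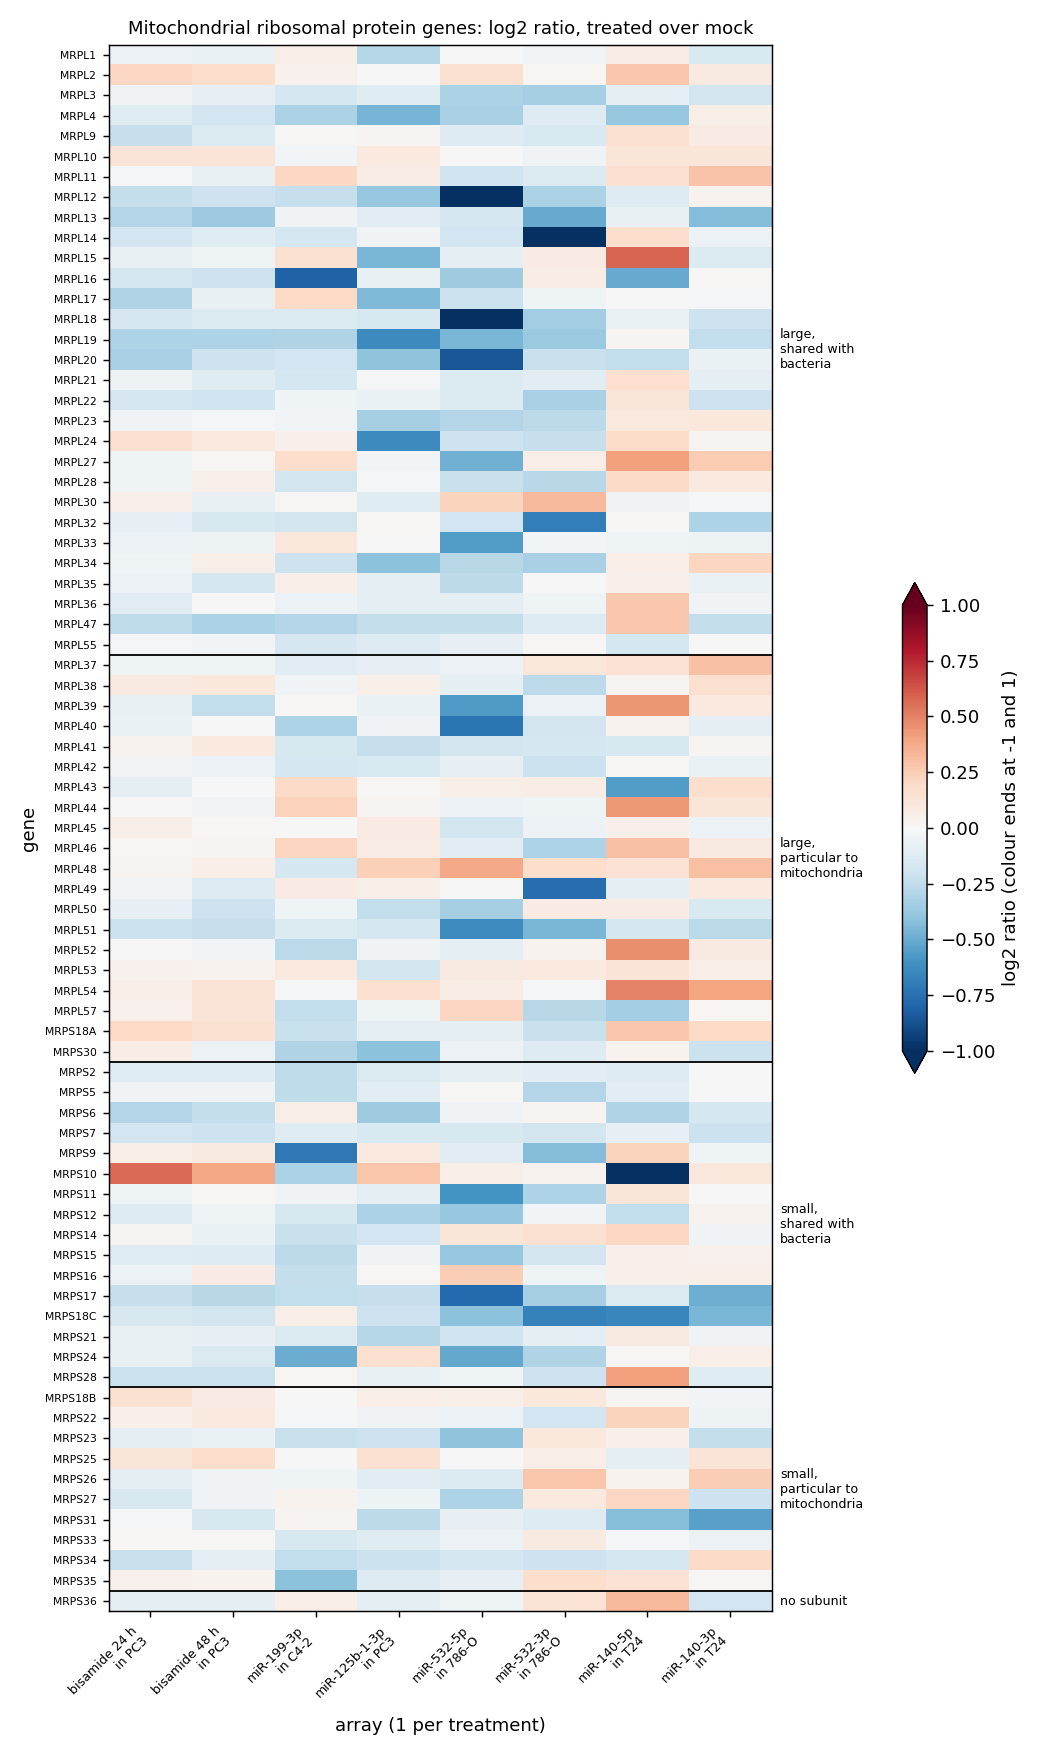
Log2 ratio of treated over mock (colour, ending at −1 and 1) of the 77 members (rows, by subunit and origin) on the 8 arrays (columns). Low values stand as single cells, such as MRPL18 and MRPL12 with miR-532-5p, MRPL14 with miR-532-3p and MRPS10 with miR-140-5p.

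The low values can be set out by subunit and origin. With miR-532-5p, 4 of 30 shared large subunit proteins, 3 of 20 large subunit proteins particular to mitochondria and 3 of 16 shared small subunit proteins were under −0.5, and none of the 10 small subunit proteins particular to mitochondria. The medians were −0.21, −0.08, −0.14 and −0.08 in that order. With miR-532-3p the counts were 3, 1, 1 and 0 and the medians −0.14, −0.09, −0.18 and 0.09. With miR-140-5p the counts were 1, 1, 2 and 0. No test was made between these groups. MRPS36, which is no subunit, lay between −0.19 and 0.32.

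In all, 8 members were below 0 on all 8 arrays, MRPL3, MRPL13, MRPL18, MRPL20, MRPL51, MRPS2, MRPS7 and MRPS17, and none was above 0 on all. Of all genes, 3.33% were below 0 on all arrays and 7.56% above. Their medians over the arrays ran from −0.12 (MRPS2) to −0.26 (MRPS17). Every array had the same dye on the treated RNA, so a probe's own dye difference and a shared response cannot be told apart. With each probe's median over the other 7 arrays taken away, MRPL18, MRPL14 and MRPL12 still read −1.94, −1.80 and −0.84 on the arrays where they were lowest.

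Other genes of mitochondrial translation were read from lists written from general knowledge. The shares of all genes past 0.5 on each array are those given above. Of 6 mitoribosomal proteins without an MRPL or MRPS symbol, DAP3, a small subunit protein, was at −0.55 with miR-125b-1-3p, and GADD45GIP1, a large subunit protein, at 0.55 with miR-140-5p. No other value of these 6 passed 0.5. Of 16 translation factors, SLIRP, which steadies mitochondrial messenger RNA, was at −0.59 with miR-532-5p, MTIF2, the initiation factor, at −0.71 with miR-532-3p, and OXA1L, which inserts new proteins into the inner membrane, at 0.61 with miR-199-3p. Of 21 assembly and rRNA modification factors, MPV17L2 was at −0.62 with miR-199-3p, the 1 value past 0.5 among them. Of 12 regulators, 10 were measured on the miR-532 arrays and 11 on the others. TFAM, which packages and transcribes mitochondrial DNA, was at −0.74 with miR-199-3p. GABPB1, a subunit of an ETS family factor, was at 0.64 with miR-140-5p. With the 5p and 3p strands of miR-532 GABPB1 was at 0.64 and 0.72. MYC was under −0.5 with bisamide at 48 h (−0.51) and with both strands of miR-140 (−0.51 and −0.53), and ESRRA with miR-532-3p (−0.60).

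Repeat measurements set a scale for these values. The probes of MRPS6, MRPS15, MRPS23 and MRPL22 had 10 spots each, and the standard deviation of the log2 ratio among their spots ran from 0.01 to 0.09. Of the members, 60 had 1 probe, 16 had 2 and MRPL19 had 3. Of 104 pairs of values from different probes that were both measured on all arrays, 3 differed by more than 0.5, and the median difference in size was 0.09. Spots and probes share the RNA and the labelling, so they do not measure the spread between cultures.

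The members also differed between the untreated lines. Mock levels are log2 Cy3 intensities after quantile normalization and were compared within a probe only. The largest range belonged to MRPS6, the counterpart of a bacterial small subunit protein. Its mock level was 11.91, 12.07 and 11.84 in PC3, 10.84 and 10.89 in 786-O, 9.62 and 9.67 in T24 and 8.99 in C4-2. The lines stood in this order without overlap, though C4-2 had 1 mock and thus no spread. The mocks of 786-O, and those of T24, may each be 1 RNA, so their gaps may hold no spread between cultures. MRPS10 read 9.97, 9.98 and 9.89 in PC3, 9.35 and 9.43 in 786-O, 9.32 and 9.28 in T24 and 8.14 in C4-2. 786-O and T24 are neighbours in that order, and their gap is close to the gap within 786-O.

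MRPL15 had another order, at 10.57 and 10.60 in T24, 10.07 and 9.97 in 786-O, 8.91, 8.80 and 8.90 in PC3 and 8.85 in C4-2, where the last 2 lines overlapped. MRPL13 was highest in PC3 (11.62 to 11.69) and lowest in C4-2 (10.01). MRPS36 was highest in T24 (11.10 and 11.18) and lowest in 786-O (9.42 in both). MRPL18 was nearly level, at 10.41 to 10.82 in PC3, 10.53 in C4-2, 10.62 and 10.72 in 786-O and 10.85 and 10.89 in T24. Its low ratio with miR-532-5p thus started from a mock level like that of the other lines. The standard deviation among the PC3 mocks had a median of 0.10 over members and reached 0.36 (MRPL10), and the gap between the 2 mocks had a median of 0.05 in 786-O and 0.04 in T24.

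**Figure D5:**
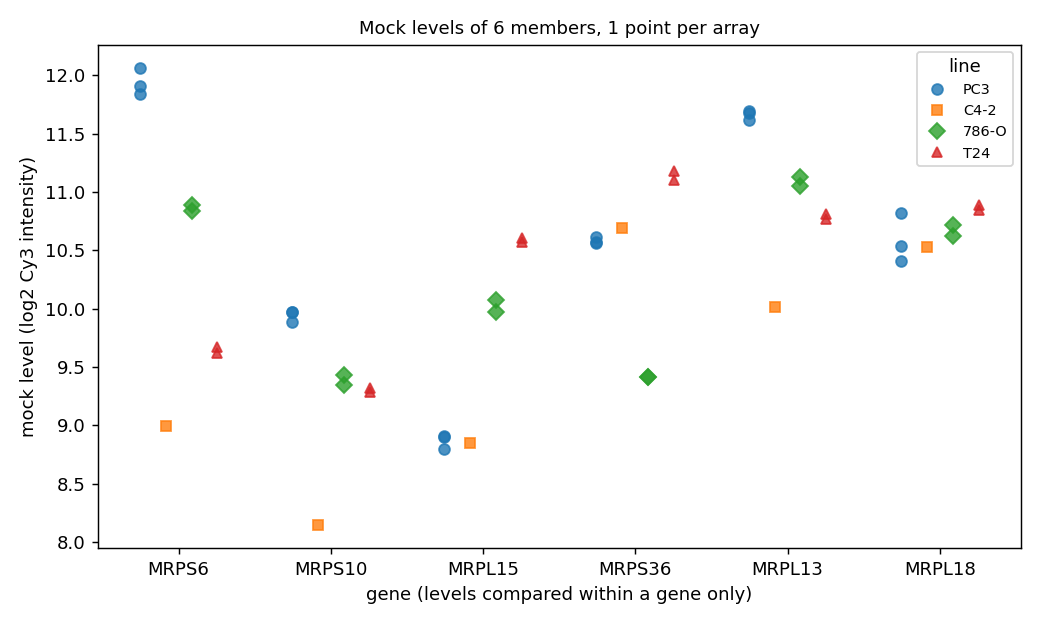
Mock level (y axis, log2 Cy3 intensity) of the 5 members with the widest range between lines and of MRPL18 (x axis), 1 point per array, by line. MRPS6 runs from 8.99 in C4-2 to 12.07 in PC3, and MRPL18 stays between 10.41 and 10.89.

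Across the family, 35 members had their highest mean mock level in PC3, 22 in C4-2, 16 in T24 and 4 in 786-O. The range of line means was over 1 for 21 members. Shares of all genes are not given for these counts, so they are not read as a family trait. Against PC3, 31 members were lower by more than 0.5 and 3 higher in 786-O, where 12.5% and 12.3% of all genes were. In T24 the counts were 24 and 11, where 11.6% and 11.4% of all genes were, and in C4-2 24 and 10 (16% and 16.6%). Median differences were −0.32, −0.25 and −0.06 in that order. Scaling each mock to its 75th percentile in place of quantile normalization moved them to −1.02, −0.41 and −0.80, with all genes at 0.14, 0.05 and 0.19, so their size depends on the scaling and their direction did not. The counts of members lower and higher by more than 0.5 then became 67 and 0 in 786-O, 37 and 3 in T24, and 56 and 1 in C4-2. No share of all genes under that scaling is set beside these counts, so they are not read as a family trait.

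Some promoter motifs, which the choice of genes did not use, were more frequent among the members than among all promoters. RefSeq promoters of GRCh38.p14, 250 bases before to 50 after a start site, were held for 68 members, with 84 promoters in all. Promoters of nearby start sites of a gene can overlap, so a motif can count more than once. The motif TGCGCA, part of the site of the factor NRF1, stood in 20.2% of member promoters and in 8.24% of 35116 promoters of all genes. CCGGAAG, the site of ETS factors such as GABPA, stood in 38.1% and 10.3%, and ATGGCG, the core of the YY1 site, in 41.7% and 10.7%. Both strands were searched, no motif contains another, and TGCGCA reads the same on both strands. At least 1 motif stood in 73.8% of member promoters and in 24.5% of all promoters, and all 3 stood in no member promoter and in 0.33% of all. The 80 bases before the start site of 2 members low with miR-532-5p are shown with the motifs in capitals, an NRF1 motif in MRPL12 (chr17:81703287-81703366, plus strand) and a pair of ETS motifs in MRPL20 (chr1:1407294-1407373, minus strand).
MRPL12: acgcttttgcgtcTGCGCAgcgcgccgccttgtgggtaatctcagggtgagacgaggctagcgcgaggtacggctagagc
MRPL20: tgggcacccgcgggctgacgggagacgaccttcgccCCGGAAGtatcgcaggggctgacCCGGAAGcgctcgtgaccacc
Of the MRPL18 promoters, 2 overlap and held the same TGCGCA, and the other held the ETS motif. The 3 MRPL14 promoters held none of the 3 motifs. A motif here is a match of letters, and binding was not measured.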

How the data were processed

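RNA was extracted with Trizol, amplified, labelled and hybridised by the authors, who read the 8 arrays with Agilent Feature Extraction 11.5.1.1. The deposited files hold for each spot and channel a mean intensity and a local background intensity on a linear scale, the software's flags, and its own log10 ratio (red Cy5 to green Cy3). The deposited series table repeats that ratio (largest difference 0.0). Probe coordinates are those of GRCh37.

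Background was corrected by normexp (offset 50) and dyes by loess (span 0.3) in limma 3.58.1 under R 4.3.3, giving log2 ratios. Between 126 and 181 outlier spots per array were dropped, no spot was saturated (0 of 60901), spots were averaged, and the probe of highest mean intensity represented a gene. A measured gene was well above background in both channels. The steps were tested on simulated data. With 1 array per group no p-value was computed, and precision is limited by how few arrays there are. Groups followed the treatment in the labels.

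Named were MRPL18, the 3 lowest and 3 highest members per array, members past 1.0, and the 5 widest ranges over arrays and over mock means of the lines. Others, and the match to seed bases 3 to 8, were chosen after their values were seen. Members and lists were chosen with earlier results of these data known. Of the member symbols, 76 are in the RefSeq table. The alternatives were an offset of 0, no background correction, median centring, the scanner's own ratio, a filter on 1 channel, the mean over probes, each ratio minus the probe's median over the other 7 arrays, a size of 1.0 and, for mocks, scaling to the 75th percentile. One cell line marker is not reported here.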

Additional observations from a re-analysis of the deposited data

How the results depend on the processing

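All 26 member values past 0.5 stayed past it with a normexp offset of 0, without background correction, with the scanner's own ratio and with a filter on 1 channel. Of them, 22 did with the mean over probes, 18 after subtraction of the other 7 arrays and 13 with median centring. Relative to the median of all genes, all 26 kept their direction under centring and 16 stayed past 0.5. Centring alone turned signs: MRPL13 (miR-532-3p) read 0.0340, MRPL16 and MRPS18C (miR-140-5p) 0.25 and 0.12, MRPL19 and MRPL24 (miR-125b-1-3p) 0.10 and 0.0934, and MRPS31 (miR-140-3p) 0.23. Under centring the member medians were 0.71 and 0.69 with bisamide at 24 h and 48 h, 0.49 with miR-199-3p, 0.60 for miR-125b-1-3p, −0.25 and 0.26 for the 5p and 3p strands of miR-532, and 0.79 and 0.76 for those of miR-140. Members over 0.5 then numbered 75, 74, 34 and 55 on the first 4 arrays, 13 with miR-532-3p, and 65 and 67 for miR-140. Those under −0.5 numbered 16 and 1 for miR-532 and 0 on the other miRNA arrays. The median of all genes was itself 0.45 and 0.44 with bisamide, 0.30 with miR-199-3p and 0.42 with miR-125b-1-3p. It was −0.03 and 0.17 for the strands of miR-532, and 0.35 and 0.45 for those of miR-140. No share of all genes past 0.5 is set beside the counts under the alternatives, so they are not read as a family trait. Median strand differences under centring were −0.56 (miR-532) and 0.0229 (miR-140). After subtraction of the other 7 arrays the medians were 0.01 at both bisamide times (0.00888 and 0.0140), −0.0176 for miR-199-3p, −0.0326 for miR-125b-1-3p, −0.0633 for miR-532-3p, and 0.13 and 0.0499 for miR-140. Low members then numbered 1 for miR-125b-1-3p, 3 for miR-532-3p, and 2 and 0 for miR-140, with 4 high for miR-140-5p. At a size of 1.0, 2 members were low with miR-532-5p, 1 each with miR-532-3p and miR-140-5p, 0 on the other miRNA arrays, and 0 were high anywhere. The scanner's own ratio gave 4 low members for miR-199-3p, 6 for miR-125b-1-3p and 2 for miR-140-3p, and 1 high for miR-532-5p and 5 for miR-140-5p. An offset of 0 gave 6 low for miR-125b-1-3p, 8 for miR-532-3p and 2 for miR-140-3p, and 1 and 3 high for miR-532-5p and miR-140-5p. Without background correction 2 were high for miR-140-5p and 2 low for miR-140-3p. The mean over probes gave 1 low for miR-125b-1-3p and 2 for miR-140-5p. Mock levels scaled to the 75th percentile gave medians against PC3 of −0.80 in C4-2, −1.02 in 786-O and −0.41 in T24. The cause was not tested. No paired analysis was possible because a treatment had a single array, and no spread between cultures was measured. Dim probes are shrunk by the offset and have the least certain ratios.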
